A study of Mus musculus with 6 samples.

Results

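Heat shock proteins and chaperonins are the enzymes that fold new proteins and refold damaged ones. HSP70 proteins bind exposed stretches of a chain and are set in motion by J-domain partners, HSP90 completes the folding of kinases, receptors and other clients, and the ring-shaped CCT and HSP60 chaperonins enclose a chain in a chamber. Their genes are switched on by the heat shock factors, of which Hsf1 is the main activator under stress. In dendritic cells, chaperones also take part in handing antigen to presentation pathways.

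The genes described here were the 62 heat shock protein, J-domain protein and CCT genes, together with Hsf1 and Hsf2, whose symbols fell in the families Hspa, Hspb, Hspd, Hspe, Hsph, Hsp90a, Dnaja, Dnajb, Dnajc and Cct or were Tcp1. The rule left out 4 chaperones of the endoplasmic reticulum (Hspa5, Dnajb9, Dnajb11 and Dnajc3) and required a mean normalized count of at least 10 over the 6 libraries. Before that threshold 79 of the 52550 genes in the files matched. Just inside it lay Hspb1 and Dnajc28, and just outside it Dnajb13 with a mean of 8.10 and Cct6b with a mean of 6.45. Of the 17 genes below the threshold, 7 were listed at 0 in every library. All 62 genes passed the filter of the test, Hspb1 through the taurine libraries alone. By textbook location the set was not wholly cytosolic, since 8 of its proteins work in mitochondria and several are anchored in or enclosed by the endoplasmic reticulum.

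RNA came from plasmacytoid dendritic cells of C57BL/6 mouse spleen, which sense nucleic acids through TLR7 and TLR9. All cells received R837 (imiquimod, a small-molecule TLR7 agonist) for 12 hours, in 3 libraries alone and in 3 together with taurine, an amino sulfonic acid. All values are therefore from stimulated cells, and the comparison shows how their transcripts differ with taurine present. The labels do not name the animal or culture behind each replicate, and p-values cover only the spread from library to library, which may be technical.

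The libraries held between 33585080 and 38392654 reads on genes. Genes were tested with limma on log2(normalized count + 1) and called at an adjusted p under 0.05. All 16 plasmacytoid dendritic cell markers were detected, with 4 higher and 4 lower with taurine, against 3.75% and 2.66% of all tested genes. Irf7, Cox6a2 and Bst2 were among the higher, and Runx2 and Pacsin1 among the lower. The summed normalized count of the 16 markers was 415096 to 453410 with R837 and 449387 to 465580 with taurine. That sum joins markers that rose with markers that fell. The 8 B cell markers summed to 1577 to 2676 with R837 and 1731 to 2472 with taurine, and none was called by limma (1 at an unadjusted p under 0.05, 0 by edgeR and 1 by DESeq2). Of the 11 T and NK cell markers, Cd3d, Cd3g, Gzma and Prf1 were at 0 in every library, and their sums, 87480 to 93652 with R837 and 75696 to 82183 with taurine, were mostly Cd8a, the only one called (lower). The conventional dendritic cell markers (8, with Flt3 and Clec9a lower) summed to 34528 to 36635 with R837 and 28752 to 30498 with taurine. The monocyte, macrophage and neutrophil markers (8 of 10 tested, none called by limma or edgeR, 2 by DESeq2, 3 at an unadjusted p under 0.05) summed to 13446 to 14975 with R837 and 14359 to 16718 with taurine. The 6 erythroid markers summed to 58.5 to 110.4 with R837 and 162 to 202 with taurine, with Hba-a1 higher. Of the 6 stromal and endothelial markers, Col1a1 and Col1a2 were at 0 everywhere and Kdr and Cdh5 were lower, with sums of 100147 to 119271 against 83011 to 89064. In bulk RNA, fewer cells of a type and less RNA per cell cannot be told apart, and the part of these differences in the results that follow was not tested.

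Promoter sequences are shown for 3 of the genes that rose, because they hold runs of GAA and its reverse TTC, the units that heat shock factors bind as repeats, and because they show which genes cannot be separated by sequence. They come from the RefSeq promoter table for GRCm38.p6, which spans 250 bases before to 50 bases after a gene start. Capitals mark runs of alternating GAA and TTC units, each 2 bases apart. Hspe1 lies at chr1:55087898-55088197 on the plus strand, Hspa1a at chr17:34972107-34972406 and Hspa1b at chr17:34959189-34959488, both on the minus strand, and each is printed 5′ to 3′ on its own strand.
Hspe1: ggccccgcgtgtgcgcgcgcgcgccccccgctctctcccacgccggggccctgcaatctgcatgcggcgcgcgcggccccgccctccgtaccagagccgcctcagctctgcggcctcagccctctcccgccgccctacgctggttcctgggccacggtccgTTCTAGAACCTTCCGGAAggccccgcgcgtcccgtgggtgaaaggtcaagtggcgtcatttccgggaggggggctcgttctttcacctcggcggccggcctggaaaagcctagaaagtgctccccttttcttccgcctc
Hspa1a: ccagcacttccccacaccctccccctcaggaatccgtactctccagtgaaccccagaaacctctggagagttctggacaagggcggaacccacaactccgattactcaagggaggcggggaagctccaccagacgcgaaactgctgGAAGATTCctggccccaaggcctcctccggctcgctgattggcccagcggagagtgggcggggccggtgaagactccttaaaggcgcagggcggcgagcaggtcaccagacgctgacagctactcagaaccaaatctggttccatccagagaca
Hspa1b: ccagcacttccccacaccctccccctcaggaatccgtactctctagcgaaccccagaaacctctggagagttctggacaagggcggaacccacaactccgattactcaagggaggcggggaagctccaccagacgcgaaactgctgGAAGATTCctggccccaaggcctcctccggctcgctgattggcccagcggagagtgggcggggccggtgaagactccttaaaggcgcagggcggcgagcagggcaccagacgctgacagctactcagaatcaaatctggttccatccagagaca
The 18-base run of Hspe1 began 89 bases before the gene start. The mitochondrial chaperonin genes Hspe1 and Hspd1 lie head to head, and the same run was read from the other strand in a window of Hspd1 (chr1:55087883-55088182, minus strand), beginning 144 bases before that start. In Hspa1a and Hspa1b the run had 8 bases, 2 exact units, and began 104 bases before the start. Only exact units at this spacing were searched, so imperfect or more distant units in these windows are not marked. Their windows carried the same base at 296 of 300 positions (98.7%).

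Runs of 3 units, written GAANNTTCNNGAA or TTCNNGAANNTTC, stood in 198 of all 32851 promoters (0.603%). The table held 66 promoters for 49 of the 62 chaperone genes, and 6 of these (9.09%) carried such a run. They belonged to Hspd1, Hspe1, Dnajb6 and Hsph1, of which Hspe1 was the one called higher. These counts repeat sites: Dnajb6 and Hsph1 each entered through overlapping windows with the same run, and Hspd1 and Hspe1 share a run. By gene, 4 of 49 had such a run, against 179 of 27025 in the whole promoter table. Runs of 2 units, GAANNTTC or TTCNNGAA, were found in 15.1% of all promoters and in 27.3% of the chaperone promoters, those of 3 units included. Each pair of patterns covers both strands. Cct3, Cct7, Dnaja2, Dnajc15 and Dnajc17 were called higher and held neither run in these windows, which says only that these letters were not there. Hspa8, Hsp90ab1 and Dnajc12, also called higher, had no promoter in the table, so theirs were not searched.

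With taurine, 11 of the 62 chaperone genes rose and none fell (limma, adjusted p under 0.05). Hspa1a and Hspa1b, whose reads cannot be told apart with certainty, are counted separately in the 11. With the pair summed, 10 were called higher and 0 lower. Over all 15265 tested genes, 3.75% were called higher and 2.66% lower. These shares are also the background for the counts by family, location and list that follow. The stress-inducible HSP70 genes Hspa1a and Hspa1b rose most clearly, and the abundant constitutive chaperones Hspa8 and Hsp90ab1 also rose (log2 changes 0.27 and 0.26), together with Hspe1, Cct3, Cct7, Dnaja2, Dnajc12, Dnajc15 and Dnajc17. Of the 51 not called, 26 had a positive and 25 a negative fitted log2 change, so the rise was not shared by the whole set. For 3 of those 26 (Dnajc28, Dnajc27 and Dnajc9) the mean count was lower with taurine. The median log2 change was 0.04 over the 62 genes and -0.01 over all tested genes. An unadjusted p under 0.05 was reached by 28 of the 62, against 23.7% of all tested genes. The edgeR fit called the same 11 higher and 0 lower, against 3.74% and 2.48% of all genes it tested. DESeq2 called 14 higher and 1 lower (Dnajc16), against 8.38% and 8.14% of the genes to which it gave an adjusted p. The groups of 3 libraries did not overlap for 19 genes in the higher direction and 9 in the lower. Over all tested genes these shares were 14.6% and 15%. Hspb1, which passed the filter through the taurine libraries alone, is counted in both the 28 and the 19, so its part in them followed partly from the filter.

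Chaperone genes are abundant, and abundant genes were called more often. Among the 5441 tested genes with a mean of at least 1000, 8.25% were called higher and 5.2% lower. The set had 40 genes in that range, of which 8 were called higher and none lower, with Hspa1a and Hspa1b counted separately. Exon length also moved with the groups: across genes, each library's departures from the gene means had a Spearman correlation with exon length of 0.108, 0.147 and 0.0443 in the R837 libraries and -0.100, -0.131 and -0.203 in the taurine libraries. After each library's trends on length and GC content were removed, 15 of the genes were higher, 10 of the 11 among them. Dnajc17 was the one that missed (limma adjusted p = 0.122). Dnaja1, Dnajb6, Dnajc8, Hspa4l and Hsph1, not called in the main fit, were called higher there.

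**Figure D1:**
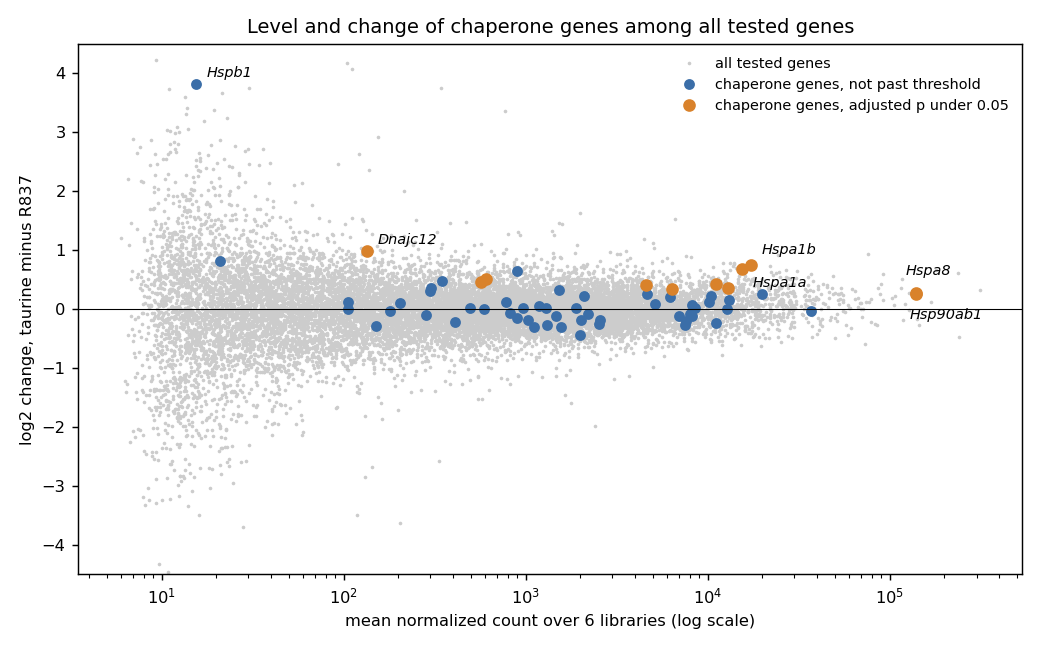
Mean normalized count over 6 libraries (horizontal, log scale) against the log2 change with taurine (vertical) for all 15265 tested genes (grey), chaperone genes not called (blue) and called (orange); 10 genes lie outside the drawn range. The called chaperone genes lie above the zero line, from Dnajc12 at 0.98 on the left to Hspa8 and Hsp90ab1 at 0.27 and 0.26 on the right.

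Summed over the 62 genes, chaperone transcripts took up 1.51%, 1.53% and 1.45% of all reads on genes in the R837 libraries and 1.68%, 1.63% and 1.67% in the taurine libraries. Every taurine library lay above every R837 library. Hspa8 and Hsp90ab1 together supplied 47.9% to 48.3% of these transcripts with R837 and 49.8% to 51.1% with taurine. Per kilobase of exon, Hsp90ab1 (46775 normalized counts per kb, mean of 6 libraries) and Hspa8 (32475) ranked first and second in the set. They were followed by Hsp90aa1 (9397), Hspa1b (6190.3) and Hspa1a (5202), and the lowest was Dnajc28 (5.87). Hspa8 lay above Hsp90aa1 in every library. The order of Hsp90ab1 and Hspa8 depends on the processed copies of Hspa8, which draw reads that may belong to it: Hsp90ab1 was higher in every library without them, and Hspa8 in 4 of 6 with the reads of 4 copies added. Hspd1 and Dnaja2, sixth and seventh, overlapped across libraries.

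**Figure D2:**
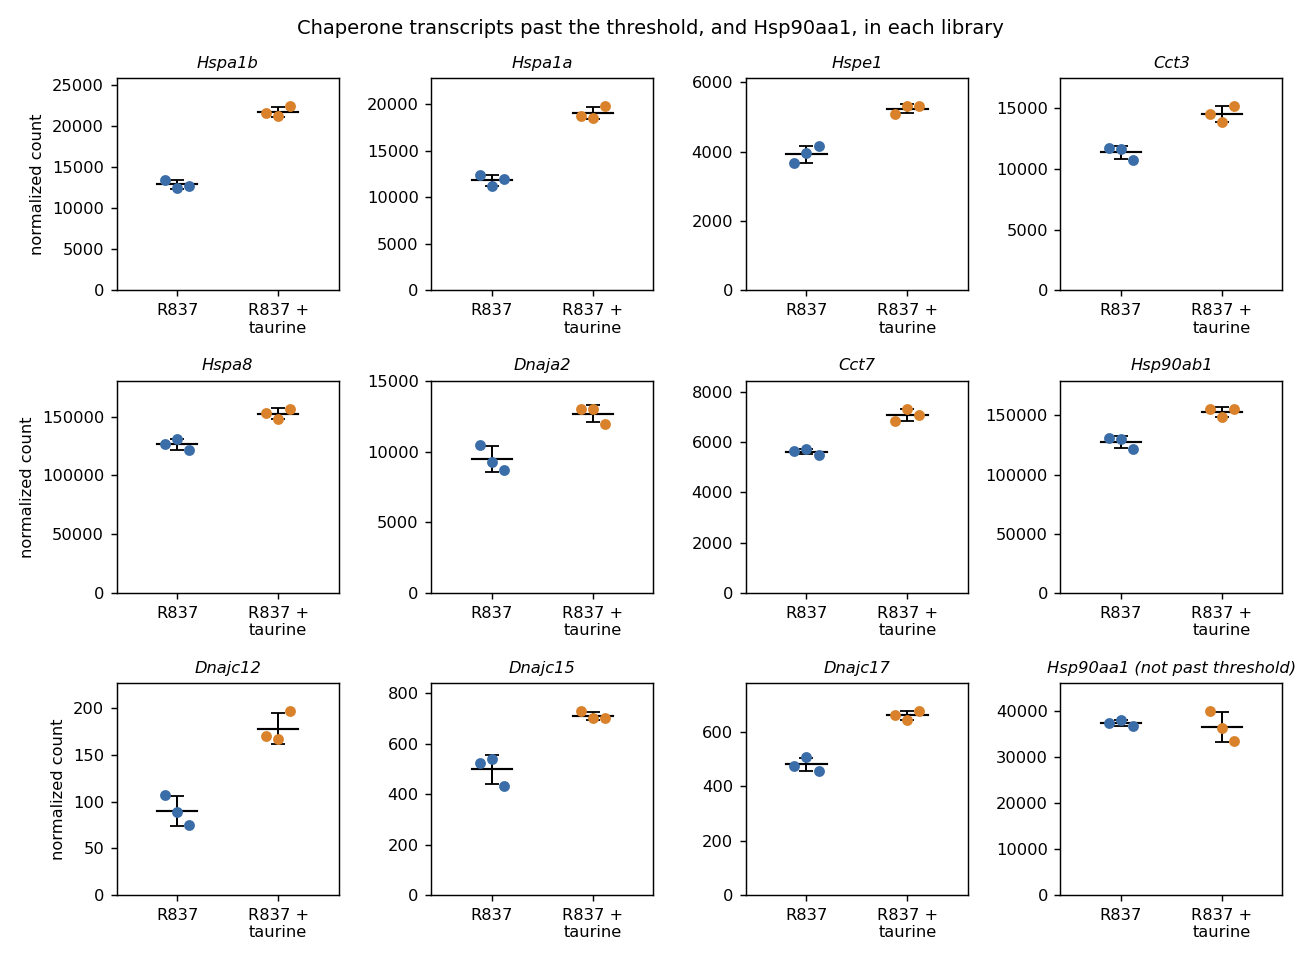
Normalized count in each library (points) with the mean and SD of 3 libraries (line and bars) for the 11 chaperone genes called higher and for Hsp90aa1, with axes from 0. The groups do not overlap in any of the 11 panels and overlap for Hsp90aa1, at 36712 to 37965 with R837 and 33354 to 39931 with taurine.

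Heat shock factors did not pass the test. Hsf1, the main stress-activated factor, had normalized counts of 1085, 1088 and 1115 with R837 and 889, 961 and 1032 with taurine. Each taurine library lay below each R837 library, with a log2 change of -0.19 ± 0.10 (SE, limma adjusted p = 0.285). Hsf2, a related factor active in development and proteotoxic stress, had 455, 656 and 1059 with R837 and 1119, 1127 and 969 with taurine. The spread of Hsf2 with R837 was wide and the groups overlapped (log2 change 0.65 ± 0.26, limma adjusted p = 0.173). The value of Hsf2 rested on single libraries: without R837 replicate 1 the log2 change was 0.36 (limma adjusted p = 0.377), and without R837 replicate 3 it was 0.97 and passed (adjusted p = 0.0167). These values are transcript levels, and the activity of Hsf1 is set mostly at the protein level.

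In the HSP70 and HSP110 family, 3 of 10 genes rose and none fell, with a median log2 change of 0.30 and with Hspa1a and Hspa1b counted separately. Hspa1b (chr17:34956436-34959238, minus strand) had normalized counts of 13483, 12512 and 12734 with R837 and 21662, 21260.2 and 22457 with taurine. Hspa1a (chr17:34969190-34972156, minus strand) had 12371, 11216 and 11921 with R837 and 18745, 18561 and 19788 with taurine. Both encode the stress-inducible cytosolic HSP70, and in both genes the lowest taurine library stood far above the highest R837 library. The rise was 1.69-fold for Hspa1b (log2 change 0.76 ± 0.06 SE, limma adjusted p = 0.00238) and 1.61-fold for Hspa1a (0.69 ± 0.06, adjusted p = 0.00296). These were the 2 calls that held whichever single library was left out.

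The transcripts of Hspa1a and Hspa1b matched at 99.2% identity over 2200 of the 2803 bases of Hspa1b, so reads cannot be assigned to one of them with certainty, and the pair is best read as a sum. The summed normalized count was 25854, 23728 and 24655 with R837 and 40407, 39821 and 42245 with taurine. The sum rose by a log2 change of 0.72 ± 0.06 (95% interval 0.59 to 0.85, limma adjusted p = 0.00238). Exons of Hspa1a also overlap those of Gm20481 on the other strand by 564 bases, and with those reads added Hspa1a kept its call (adjusted p = 0.00287).

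Hspa8, the constitutive HSP70 (Hsc70) that supplies most folding and clathrin uncoating activity, had 126631, 131344 and 122014 with R837 and 152978, 148142 and 156931 with taurine. The groups did not overlap, and the mean went from 126663 ± 4665 (SD) to 152684 ± 4402, a log2 change of 0.27 ± 0.05 (SE, limma adjusted p = 0.0206). Several processed copies of Hspa8 draw reads that may belong to it. Gm15459 held 21.1% and Gm26825 19.3% as many reads as Hspa8 itself, and both were also called higher (log2 changes 0.30 and 0.26). With the reads of all near-identical copies added, the log2 change of Hspa8 was 0.28 (adjusted p = 0.0174). Under quantile normalization it was 0.10 and missed the threshold (adjusted p = 0.268).

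The other 7 genes of the family were not called. Hsph1, the HSP110 that exchanges the nucleotide of HSP70, had 12398, 12884 and 11958 with R837 and 13711, 14069 and 13510.5 with taurine, without overlap (log2 change 0.15 ± 0.06, limma adjusted p = 0.175). Its relative Hspa4 had means of 8165 ± 213 (SD) and 7091 ± 573 (-0.21, adjusted p = 0.146). Hspa13, an HSP70-like protein of the endoplasmic reticulum, went from 2276 ± 201 to 1709 ± 408 (-0.44 ± 0.17, adjusted p = 0.161), and to -0.23 without taurine replicate 3, its lowest library. Hspa4l, Hspa2, Hspa1l and Hspa14 had log2 changes between 0.01 and 0.47.

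Of the HSP90 genes, Hsp90ab1 rose and Hsp90aa1 was not called. Hsp90ab1, the constitutive cytosolic form, had 131065, 130158 and 121410.0 with R837 and 155757, 148322 and 154965 with taurine. The groups did not overlap, with means of 127544 ± 5332 (SD) and 153015 ± 4083 and a log2 change of 0.26 ± 0.05 (SE, limma adjusted p = 0.0243). Under quantile normalization the change was 0.12 and missed the threshold (adjusted p = 0.169). Hsp90aa1, the stress-inducible form, had 37376, 37965 and 36712 with R837 and 39931, 36292 and 33354 with taurine. Its groups overlapped, and its log2 change was -0.04 with a 95% interval of -0.20 to 0.13 (limma adjusted p = 0.806). That interval excludes a rise of the size seen for Hspa1a or Hspa1b. The direction for Hsp90aa1 turned positive, at 0.04, when length and GC trends were removed. The log2 ratio of Hsp90ab1 to Hsp90aa1 within a library was 1.81, 1.78 and 1.73 with R837 and 1.96, 2.03 and 2.22 with taurine, without overlap (difference 0.30). This ratio and that of Hspe1 to Hspd1 were chosen after their values were seen. An exact permutation test gave p = 0.1 for each. That is the smallest value possible with 3 libraries a group, so the test cannot decide.

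In mitochondria, the HSP10 gene rose and its partner HSP60 was not called. Hspe1 (HSP10, the lid of the chaperonin chamber) had 3675, 3969 and 4158 with R837 and 5095, 5318 and 5317 with taurine. Every taurine library lay above every R837 library, and the mean rose 1.33-fold (log2 change 0.42 ± 0.08 SE, limma adjusted p = 0.0188). Hspd1 (HSP60, the chamber itself) had 8995, 10508 and 9609.6 with R837 and 10734, 10476 and 10509 with taurine. The Hspd1 groups overlapped, at a log2 change of 0.13 (95% interval -0.04 to 0.29, limma adjusted p = 0.333). The log2 ratio of Hspe1 to Hspd1 was -1.29, -1.40 and -1.21 with R837 and -1.07, -0.98 and -0.98 with taurine. The exons of the pair overlap by 112 bases on opposite strands, and the strand setting of the counting was not given in the sources used here. With the reads of each added to the other, their joint log2 change was 0.22 and missed the threshold (limma adjusted p = 0.0886). That sum takes all 61218 reads of Hspd1 beside 27655 of Hspe1, so it cannot tell how reads in the overlap were assigned. Hspa9 (mortalin, the HSP70 of the import motor) had means of 8169.7 ± 1135 (SD) and 6755 ± 69.8, without overlap and not called (-0.26, limma adjusted p = 0.151). Without R837 replicate 3 Hspa9 was called lower (-0.38, adjusted p = 0.0200).

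The CCT chaperonin is a ring of different subunits that folds actin and tubulin. Of its 8 genes 2 rose and 6 were not called, against 3.75% of all tested genes called higher. Cct3 (the gamma subunit) had 11659.6, 11588 and 10710.1 with R837 and 14498, 13842 and 15126 with taurine. Cct7 (the eta subunit) had 5634, 5711 and 5500.3 with R837 and 6851, 7331 and 7072 with taurine. Neither gene overlapped between groups, and the rises were 1.28-fold for Cct3 (log2 change 0.36 ± 0.07 SE, limma adjusted p = 0.0204) and 1.26-fold for Cct7 (0.33 ± 0.07, adjusted p = 0.0239). The other subunits had log2 changes of -0.12 for Cct8, -0.11 for Tcp1, -0.09 for Cct6a, 0.01 for Cct5, 0.07 for Cct2 and 0.08 for Cct4, with the sign of Cct5 turning under quantile normalization and with totals that leave out the 50 most abundant genes. All of these overlapped between groups, with limma adjusted p from 0.419 to 0.955. The 95% intervals of those 6 reached no higher than 0.34 and no lower than -0.30. The median over the 8 subunits was 0.04 and turned to -0.03 without R837 replicate 3.

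The proteins stand in equal numbers in the ring, while the counts of their transcripts differed, in an order that depended on the scale. Per kilobase of exon, Cct7 was the lowest subunit in every library, at 811 to 843 normalized counts per kb with R837 and 1011 to 1082 with taurine. Cct2 or Cct5 was the highest. The highest subunit exceeded the lowest 3.76- to 3.87-fold with R837 and 3.06- to 3.28-fold with taurine. Union exon length counts exons of all annotated transcripts, so these levels depend on the annotation. That length was 6778 bases for Cct7 and 2557 for Cct2. Without division by length the order changed. Cct4 then had the lowest mean normalized count over the 6 libraries (5132) and Cct3 the highest (12904).

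**Figure D3:**
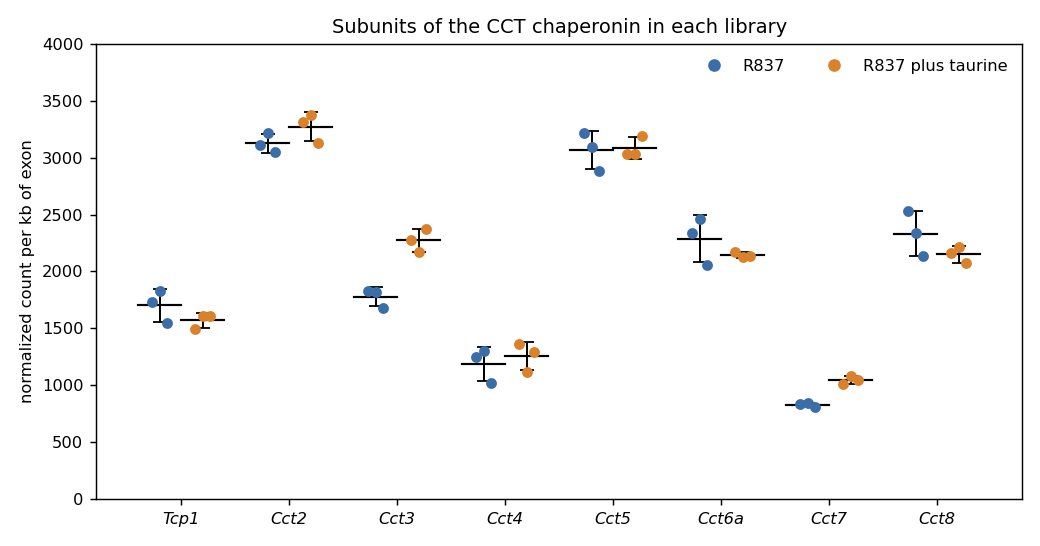
Normalized count per kb of exon (vertical, from 0) of the 8 CCT subunit genes in each R837 (blue) and R837 plus taurine (orange) library, with the mean and SD of 3 libraries. Cct3 and Cct7 separate between groups and the other 6 subunits overlap.

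J-domain proteins stimulate the ATPase of HSP70 and bring it its clients. In class A, 1 of 4 genes rose. Dnaja2, a general HSP70 partner in the cytosol, had 10482, 9263 and 8735 with R837 and 13054, 13039.8 and 11986 with taurine, without overlap. Its log2 change was 0.42 ± 0.08 (SE, limma adjusted p = 0.0233). Dnaja1, a farnesylated partner of HSP70, had 17049, 17943 and 19126 with R837 and 22878, 20977 and 20907 with taurine. Its groups did not overlap, yet it missed the threshold (0.26 ± 0.07, adjusted p = 0.0590), which it passed with length and GC trends removed (0.37, adjusted p = 0.00957), with DESeq2 (adjusted p = 0.0188), with a minimum mean of 100 (adjusted p = 0.0445) and without R837 replicate 3 (adjusted p = 0.0284). Dnaja3, the mitochondrial class A protein, had means of 1229 ± 69.8 (SD) and 999 ± 85.5 (-0.30, limma adjusted p = 0.125). Dnaja4 had a log2 change of -0.03 (adjusted p = 0.936), whose direction turned with quantile normalization (0.00).

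In class B, none of 7 genes was called by limma in the main fit, and DESeq2 called Dnajb1 and Dnajb6 higher. With length and GC trends removed, limma also called Dnajb6 higher. Dnajb1, the classical heat-inducible HSP40, had 4535, 3969 and 4209 with R837 and 5128, 4904 and 5152 with taurine. Dnajb6, which keeps aggregation-prone proteins soluble, had 9976, 9434 and 9353 with R837 and 11336, 11284 and 10849 with taurine. Neither overlapped between groups, and log2 changes were 0.26 ± 0.08 (SE, limma adjusted p = 0.0813) and 0.22 ± 0.06 (adjusted p = 0.0710). An unadjusted p under 0.05 was reached by these 2 of the 7. The remaining genes lay between -0.15 for Dnajb14 and 0.10 for Dnajb4.

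Class C is the most varied, and 3 of its 23 genes rose, against 3.75% of all tested genes. Dnajc12, known in humans as the partner of the aromatic amino acid hydroxylases, had 107, 88.6 and 75.0 with R837 and 169.6, 167 and 196 with taurine. It had the lowest level per kb of the called genes (29.9) and the largest rise of them, from 90.0 ± 15.9 (SD) to 177.5 ± 16.4 (log2 change 0.98 ± 0.21 SE, limma adjusted p = 0.0338). Dnajc15, an inner-membrane protein of mitochondria that restrains complex I in mice, had 523, 538 and 434 with R837 and 729, 702 and 699.5 with taurine. Dnajc17, a nuclear J-domain protein, had 475, 506 and 457 with R837 and 660.3, 643 and 675 with taurine. None of these groups overlapped, and limma gave log2 changes of 0.52 ± 0.12 for Dnajc15 and 0.46 ± 0.11 for Dnajc17, both with adjusted p = 0.0464. Both were lost whichever library was left out. Exons of Dnajc17 overlap those of Zfyve19 on the other strand by 108 bases. With the reads of Zfyve19 added, the change of Dnajc17 was 0.22 (limma adjusted p = 0.244). That sum takes all 5450 reads of Zfyve19 beside 3434 of Dnajc17, so it cannot tell how reads in the overlap were assigned.

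The other 20 class C genes were not called, and the class median was 0.01. Among those with the highest counts, Dnajc8, a spliceosome-associated protein, had 5826, 5810.3 and 5555 with R837 and 6530.1, 6641 and 6687 with taurine, without overlap (0.21 ± 0.06, limma adjusted p = 0.0891). Dnajc7, which links HSP70 to HSP90, ranged from 10882 to 15284 with R837 and from 11918 to 14381 with taurine, with a change under 0.01 in size. Dnajc13, which acts in endosomal sorting, had a change of -0.23 (adjusted p = 0.189) and was called lower without R837 replicate 3 (-0.35, adjusted p = 0.0166). Dnajc14 had a change of -0.18 (adjusted p = 0.664) and varied between 1842 and 3721 with R837 alone. Dnajc16, named after its values were seen, had 1753, 1720.2 and 1723 with R837 and 1408, 1387 and 1388 with taurine. These tight, separate groups gave -0.31 ± 0.08 (limma adjusted p = 0.0587), and DESeq2 called Dnajc16 lower.

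**Figure D4:**
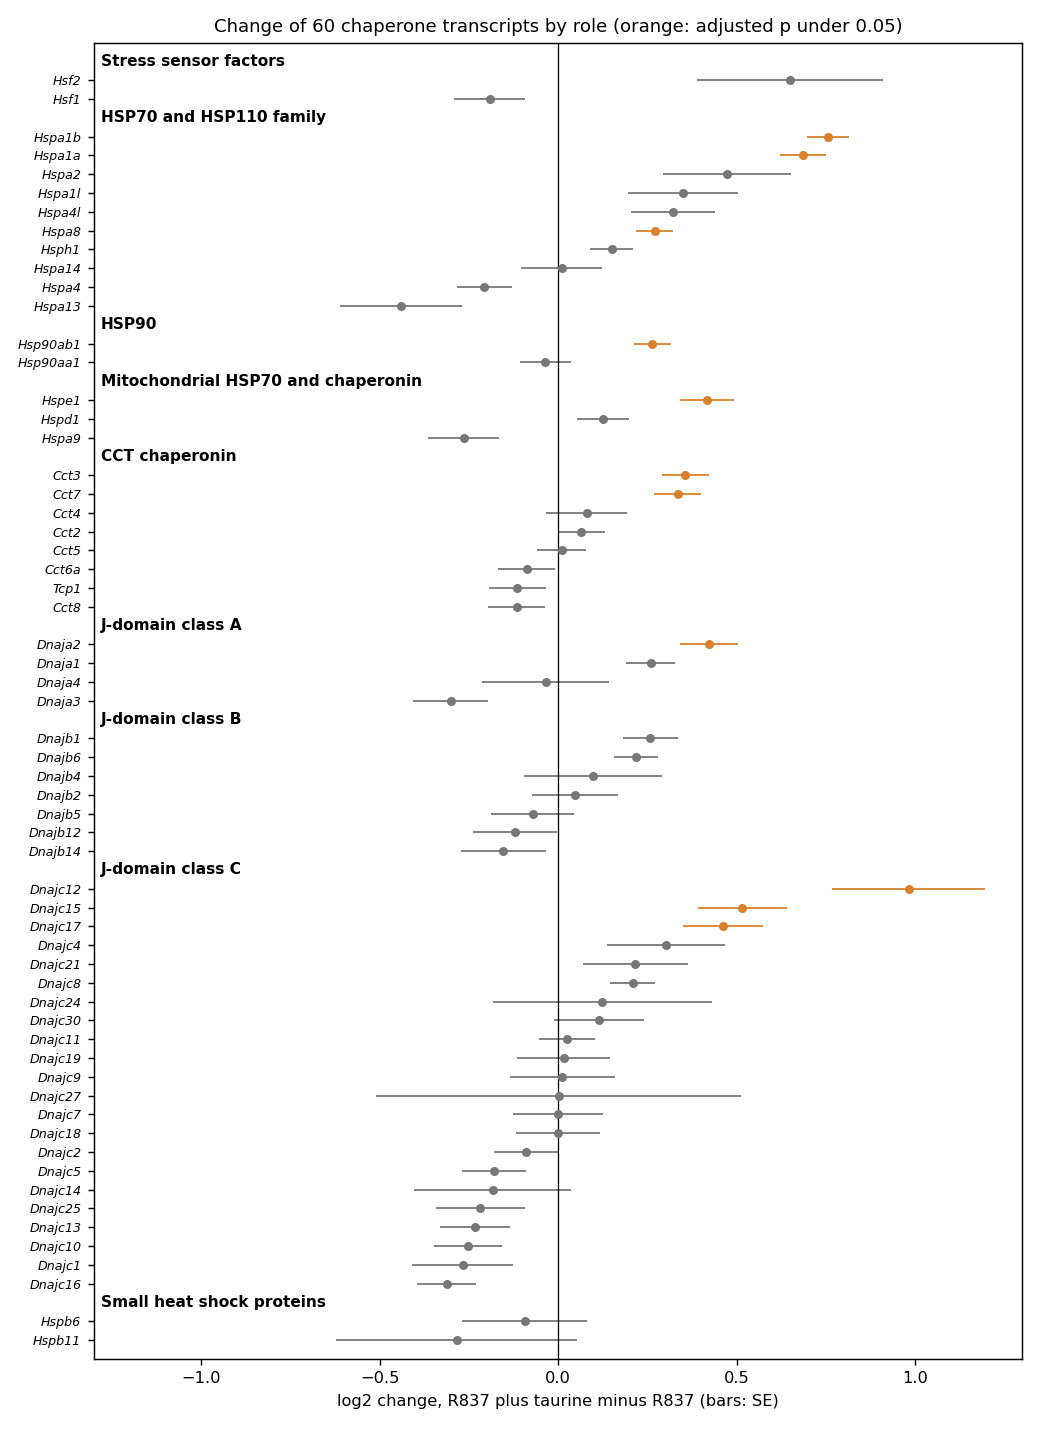
Log2 change with taurine (points) and its SE (bars) for the 60 chaperone genes with a mean normalized count of at least 100, grouped by role, with calls in orange. The 11 called genes lie to the right of zero, from 0.26 for Hsp90ab1 to 0.98 for Dnajc12, and the others scatter on both sides.

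Transcripts grouped by symbol as small heat shock proteins were scarce. Typical proteins of this kind hold unfolded proteins until HSP70 takes them over, which the symbol of Hspb11 alone does not establish. Hspb1 had 6.60, 0 and 0 with R837 and 17.2, 41.9 and 26.5 with taurine, which came from 7, 0 and 0 reads and from 17, 44 and 25 reads. It reached both filters on low values only through the taurine libraries, so the separation of its groups followed in part from the filter and is given without a test. Its fitted log2 change depended on the pseudocount, at 3.82 with 1 and 1.65 with 10. Copies of Hspb1 that match its transcript at over 99% held up to 21.5% as many reads. Hspb6 (-0.09) and Hspb11 (-0.28) overlapped between groups, with limma adjusted p of 0.793 and 0.662.

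By location, 2 of the 8 mitochondrial genes rose (Hspe1 and Dnajc15) and none fell, with a median log2 change of 0.07. Over all tested genes, 3.75% were called higher and 2.66% lower. Of the genes of the endoplasmic reticulum in the set, Hspa13, Dnajb12, Dnajb14, Dnajc1 and Dnajc10 had changes between -0.44 and -0.12, with none called. Dnajc14, Dnajc16 and Dnajc18, which also sit in the membrane of that compartment, had changes of -0.18, -0.31 and under 0.01 in size, and that of Dnajc14 turned to 0.06 without R837 replicate 2. The grouping may be incomplete, was made with earlier results of the same data known and carries no test.

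The partners of these chaperones were described by lists of the same pathways. Of 32 co-chaperones of HSP70 and HSP90, 2 rose and none fell (median log2 change 0.11), and 12 had an unadjusted p under 0.05. Over all tested genes limma called 3.75% higher and 2.66% lower, and 23.7% had an unadjusted p under 0.05. The edgeR fit called 2 of the list higher and 0 lower. DESeq2 called 3 higher and 2 lower, against 8.38% and 8.14% of the genes to which it gave an adjusted p. The 2 genes called by limma activate the HSP90 ATPase. Ahsa2 went from 1685, 1609 and 1549 with R837 to 2733, 2723 and 2626 with taurine (log2 change 0.74 ± 0.08, limma adjusted p = 0.00443). Ahsa1 went from 5042, 5151 and 4578 to 6223, 5944 and 6393 (0.33 ± 0.08, adjusted p = 0.0390). The HSP70 to HSP90 adaptor Stip1 (0.03, adjusted p = 0.813) and the heat-inducible Bag3 (0.09, adjusted p = 0.610), both named after their values were seen, were not called. Of 14 genes of prefoldin and other CCT partners, Pfdn5, a prefoldin subunit that hands chains to CCT, rose (0.41, limma adjusted p = 0.0376) and none fell, with 1 gene at an unadjusted p under 0.05 and 1 higher and 0 lower by edgeR and by DESeq2.

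Of 14 chaperones of the endoplasmic reticulum outside the set, including the 4 that the rule left out, none rose and Hyou1, the HSP110 of that compartment, fell. It had 12696, 12489.8 and 11788 with R837 and 8591, 9041 and 8167 with taurine (log2 change -0.52 ± 0.07, limma adjusted p = 0.00679). Hspa5 (BiP), the main HSP70 of that compartment, had 41010.4, 66939.7 and 31147 with R837 and 33811, 32754 and 32377 with taurine, so its groups overlapped (-0.42, adjusted p = 0.300). The list had a median of -0.09, and 6 of its genes had an unadjusted p under 0.05, against 23.7% of all tested genes. By limma, 3.75% of all tested genes were higher and 2.66% lower. In this list edgeR called 0 higher and 1 lower, and DESeq2 0 higher and 4 lower.

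The calls beyond Hspa1a and Hspa1b were each lost in most of the 6 fits with a library left out, which have fewer libraries in a group. With R837 replicate 1 or 2 left out, 3 and 2 genes were called higher, and with any taurine replicate left out, 2. With R837 replicate 3 left out 11 were called, of which 9 were among the original 11 and Dnaja1 and Hsf2 were not. In these 6 fits Dnaja2 was called in 2, Hspe1, Cct3, Cct7, Hspa8, Hsp90ab1 and Dnajc12 in 1 each (without R837 replicate 3), and Dnajc15 and Dnajc17 in none. The log2 changes moved little: over the 6 fits they ran from 0.24 to 0.30 for Hspa8, from 0.23 to 0.29 for Hsp90ab1, from 0.37 to 0.46 for Hspe1 and from 0.86 to 1.11 for Dnajc12. The settings in which each of the 11 calls held are set out in the grid of calls by setting.

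**Figure D5:**
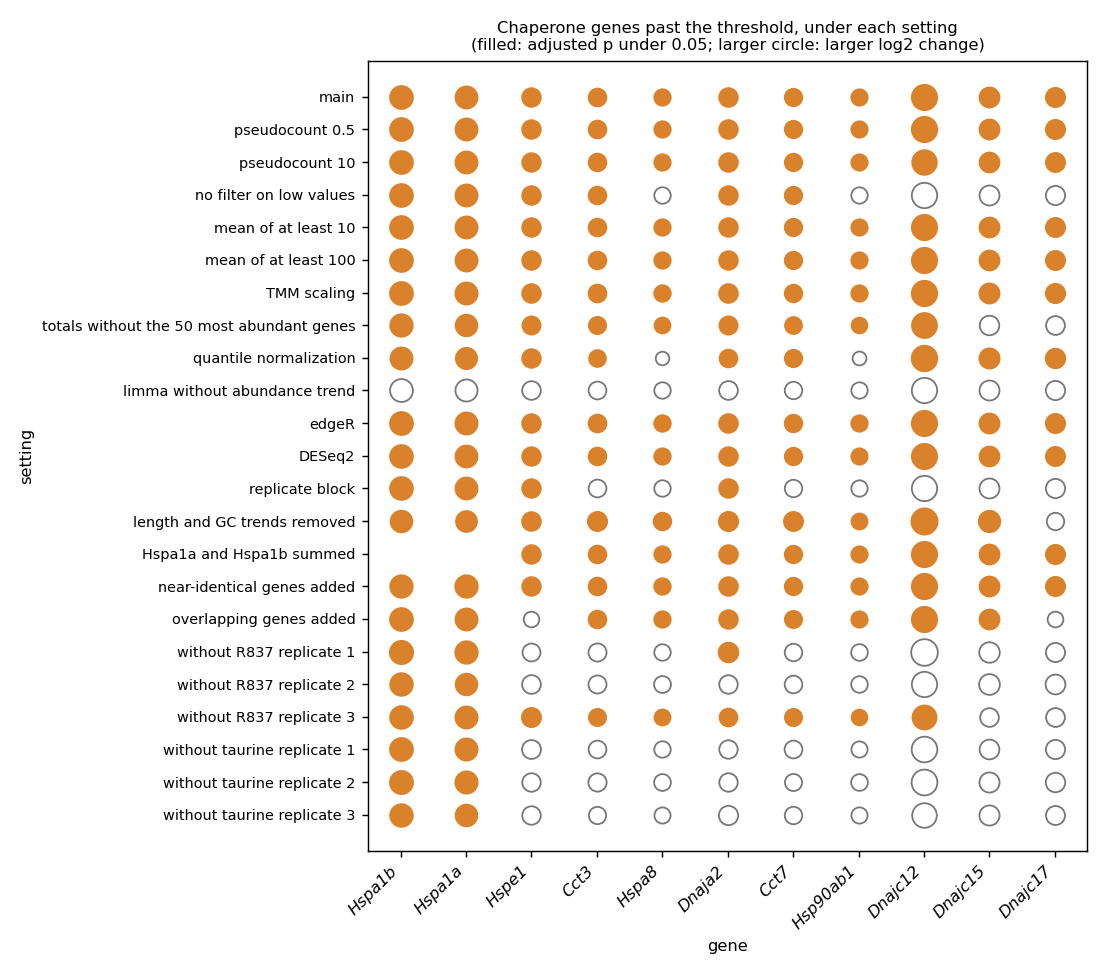
Calls of the 11 chaperone genes (columns) under the reported and each alternative setting (rows), with filled circles for adjusted p under 0.05, open circles for a miss and larger circles for a larger log2 change; Hspa1a and Hspa1b have no circle where they were summed. Hspa1b and Hspa1a are filled in all settings drawn for them but the fit without an abundance trend, where both had an adjusted p of 0.0844 and no gene was filled.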

How the data were processed

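Messenger RNA of 6 libraries was sequenced on an Illumina system. The authors deposited one signal value per gene, a normalized count per the file headers; each value was a whole number of reads (100% within 0.001 of a whole read) divided by 1 size factor per library (0.942 to 1.06). Per the submitters' processing notes, mm8 and mm10 (builds) and HISAT2 and StringTie (tools) are listed without roles; how reads were counted, with or without strand, and normalized is not given in the sources used here. Among 52403 gene identifiers shared with GENCODE M21, 95.2% had the same coordinates, so coordinates are taken as mm10 (GRCm38). The 37 mitochondrially encoded genes were at 0 in every library, and 27 symbols changed into day names were restored from identifiers.

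The 15265 genes that reached a normalized count of 10 in 3 or more of the 6 libraries were fitted on log2(normalized count + 1) with limma 3.58.1 in R 4.3.3, with an abundance trend, two-sided, and Benjamini-Hochberg adjustment over all tested genes. The pseudocount draws low values together, but a library near 0 can enlarge a fitted change or turn its sign against that of the means. Fold changes without a log are ratios of group means. Whole reads were also tested with edgeR 4.0.16 and DESeq2 1.42.0; edgeR called 571 genes higher and 379 lower. Other alternatives changed the pseudocount, filter, scaling, variance trend, replicate block and length and GC trends, summed Hspa1a and Hspa1b, or left out each library; adding reads of near-identical genes (blastn 2.17.0, at least 97% identity) or of overlapping genes was chosen after seeing the data. Scripts were tested on simulated data. The smallest of the 3 correlations between the deviations of same-numbered libraries was -0.0434 and the largest -0.00264, so the numbers were not taken as pairs. No 2 libraries of a group agreed within sampling noise.

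The chaperone genes and all gene lists were chosen with earlier results of these data known, so no test over a list was made. Genes were named if called, among the 4 most abundant of their role, or fixed for their role (such as Hsf1 and the CCT subunits); others were named after their values were seen.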

Additional observations from a re-analysis of the deposited data

How the results depend on the processing

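Of 811 values of the named chaperone genes under an alternative, 701 kept their direction and side of the threshold, 76 kept the direction and no longer passed, 13 newly passed and 21 changed direction. The 701 include genes not called in the main fit that stayed uncalled. All 76 lost calls fell on the 11 called genes, so the pooled share does not measure how stable those calls were. The 11 calls became 6 with no filter on low values, where more genes were tested, and 0 in limma without the abundance trend, where 20 of the genes had an unadjusted p under 0.05 and edgeR called 11. With each library left out in turn, the genes called higher numbered 2 to 11 and those called lower 0 to 2 (Dnajc13 and Hspa9, without R837 replicate 3). Dnajc16 was the 1 gene called lower with a minimum mean of 100, with totals that leave out the 50 most abundant genes and with DESeq2. The median log2 change stayed positive, from 0.00970 to 0.0888 with a library left out, but was 0.00141 with totals that leave out the 50 most abundant genes. Over all genes, 573 were higher and 406 lower; these became 333 and 214 with no filter, 1 and 3 without the trend (3217 with an unadjusted p under 0.05), 934 and 908 with DESeq2, and 101 to 767 and 33 to 710 with a library left out. Totals without the 50 most abundant genes gave 462 higher and 585 lower, moving the share called higher from 58.5% to 44.1%. The replicate numbers were not taken as pairs, and the labels do not say whether they mark pairs. A fit with the replicate number as a block called 4 chaperone genes higher (Dnaja2, Hspa1a, Hspa1b and Hspe1) and none lower. In that fit 24 chaperone genes had an unadjusted p under 0.05, and 365 genes were higher and 250 lower over all. The cause of these shifts was not tested.

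Directions changed for genes that were never called, given here as log2 changes. Without R837 replicate 1, Dnajc7 stood at 0.133. Without R837 replicate 2, Dnaja4 stood at 0.0712, Dnajb2 at -0.000423 and Dnajc14 at 0.0594. Without R837 replicate 3, Cct4 stood at -0.0267 and Cct5 at -0.0333. Dnajc7 stood at 0.0431 without taurine replicate 1, and without taurine replicate 2 Dnajb2 was at -0.0608, Dnajc7 at 0.0456, Hspb11 at 0.111 and Hspb6 at 0.00338. Without taurine replicate 3, Cct5 was at -0.0151 and Hsp90aa1 at 0.0276. Cct5 was at -0.0241 with totals that leave out the 50 most abundant genes and at -0.0279 with quantile normalization, where Dnaja4 was at 0.00239, and Dnajc7 was at 0.00628 with TMM scaling. With length and GC trends removed, Dnajb2 was at -0.0244, Dnajc7 at 0.0195 and Hsp90aa1 at 0.0367, and with overlapping genes added Hspb6 was at 0.148. With a library left out, the other ends of the ranges were 0.162 for Cct4, 0.0450 for Cct5, -0.111 for Dnaja4, 0.114 for Dnajb2, -0.448 for Dnajc14, -0.112 for Dnajc7, -0.102 for Hsp90aa1, -0.516 for Hspb11 and -0.212 for Hspb6. Depth limits Hspb1 and Dnajc28, with 0 reads in at least 1 library.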

Other observations

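Outside the chaperones, 2 lists of neighbouring biology were examined. Of 17 tested immediate early genes, 3 rose and 2 fell, against 3.75% and 2.66% of all tested genes. Fosb, a partner of Jun in the AP-1 factor, went from 218 ± 64.9 (SD, n = 3) normalized counts with R837 to 20.1 ± 10.4 with taurine (log2 change -3.49, limma adjusted p = 0.00675). Jun itself fell from 41404 ± 1245 to 33717 ± 961 (-0.30, adjusted p = 0.0192), whereas Atf3 (0.64, adjusted p = 0.0173), Jund (0.31, adjusted p = 0.0282) and Junb (0.26, adjusted p = 0.0449) rose. None of the 11 mitochondrial co-chaperones and proteases, such as the import-motor exchange factor Grpel1 and the protease Lonp1, was called by limma, 1 had an unadjusted p under 0.05, edgeR called 0 and DESeq2 1 (higher), and the median log2 change was 0.14. The processed copy Gm12346, which matches Hsp90aa1 at 99.5% identity, stood at 1170 ± 56.5 with R837 and 1348 ± 51.4 with taurine (0.20, limma adjusted p = 0.222), and all 3 taurine values were above the R837 values, while Hsp90aa1 itself overlapped between groups.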
